A study of Mus musculus with 12 samples.

Results

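Genes for the interferon-inducible GTPases, the immunoproteasome and MHC antigen presentation were measured by RNA-seq in cultured mouse adipocytes that differ at threonine 166 of the nuclear receptor PPARγ. The genes were chosen by symbol, as 8 guanylate-binding proteins, 5 immunity-related GTPases, 6 genes of the immunoproteasome and peptide supply, 3 of peptide loading, 8 of MHC class I, 4 of MHC class II and 3 regulators. These were 37 of the 55573 genes in the count table, and 32 of them were among the 15117 genes with enough counts to be tested. The 3 genotypes were wild type (WT), the phospho-null mutant T166A (TA) and the phosphomimetic mutant T166D (TD), each homozygous, with 4 libraries each. TA and TD were global knock-in mice on a C57BL/6 background, made with CRISPR-Cas9, and WT mice were littermates, so every cell type in the culture carried the allele. Stromal vascular cells of subcutaneous white fat were grown to confluence in serum, induced for 4 days with 850 nM insulin, 1 nM T3, 0.5 mM IBMX, 125 nM indomethacin and dexamethasone, and then kept in insulin and T3. RNA was taken on day 8 from every genotype, and no interferon was named among the treatments. The comparisons ask how blocking or mimicking phosphorylation at threonine 166 changes the level of each gene.

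Interferons bind receptors on the cell surface and act through STAT and IRF transcription factors on genes that carry GAS and ISRE sequences. Guanylate-binding proteins and immunity-related GTPases are induced in this way and attack the vacuoles in which pathogens live. The immunoproteasome replaces the catalytic subunits of the ordinary proteasome with inducible ones, the TAP transporter carries the resulting peptides into the endoplasmic reticulum, and MHC class I presents them on nearly every cell type, with B2m as its light chain. MHC class II is restricted mainly to professional antigen-presenting cells, and adipocytes have been described to express it under inflammatory conditions.

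Libraries held 18823619 to 20324286 counts in WT, 16950175 to 18182526 in TA and 16553324 to 18357864 in TD. Levels are given as counts per 1000000 (CPM), scaled between libraries by edgeR's TMM factors. All libraries carried adipocyte markers such as Adipoq, Plin1 and Fabp4, whose summed level over 14 genes was 26600 to 29900 CPM in WT, 24100 to 31900 in TA and 18400 to 20900 in TD. Of these 14, 12 were lower in TD than in WT, against 14.2% of all tested genes. Markers of other cells moved with genotype. Those of skeletal muscle summed to 3.62 to 10.9 CPM in WT, 19.4 to 79.5 in TA and 18.8 to 305 in TD (12 genes), and those of endothelium to 28.3 to 60.5, 52.5 to 97.7 and 112 to 142 (8 genes). Those of macrophages summed to 306 to 912, 157 to 673 and 723 to 976 CPM (16 genes). Those of fibroblasts and preadipocytes, which a culture of stromal vascular cells also holds, had the largest sums of these. The sums were 10100 to 13500, 11400 to 20400 and 17600 to 25700 CPM (12 genes). Of 11 tested, 6 were higher in TA and 7 in TD, against 6.72% and 15.1% of all tested genes. The 12 markers of T and NK cells were at or near 0, with 14 counts over 4 libraries at most. In such bulk RNA, more cells of a type and more RNA per cell cannot be told apart. The point mutations themselves cannot be checked in gene counts. Nothing in the labels says that the libraries of a genotype came from separate animals or cultures, so the p-values measure only the spread between these libraries.

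Promoter sequence was at hand for 27 of the 37 genes, as RefSeq windows of 250 bases before and 50 after a start on build GRCm38.p6, and 31 windows were searched on both strands. The ISRE core GAAANNGAA stood in 4 of 5 windows of guanylate-binding proteins and 4 of 4 of immunity-related GTPases, against 8.56% of all windows. The Y box GATTGG stood in 8 of 9 windows of class I genes and in 0 of 5 of guanylate-binding proteins, against 16.1% of all windows. The GAS sequence TTCNNNGAA stood in 3 of 4 windows of immunity-related GTPases and in 1 of 9 of class I genes, against 8.3%. The first 5 stretches are from GTPase genes, with the ISRE core and any GAS in capitals, and show how close to the start these letters lie. In Irgm2 and Igtp the GAS begins 11 bases before the ISRE core.
Gbp3, chr3:142559975-142560034, plus strand: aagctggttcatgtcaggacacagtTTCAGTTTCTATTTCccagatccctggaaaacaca
Gbp7, chr3:142530259-142530318, plus strand: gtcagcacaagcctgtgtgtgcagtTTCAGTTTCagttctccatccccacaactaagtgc
Irgm1, chr11:48871421-48871480, minus strand: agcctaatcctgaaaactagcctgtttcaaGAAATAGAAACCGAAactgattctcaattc
Irgm2, chr11:58214888-58214947, plus strand: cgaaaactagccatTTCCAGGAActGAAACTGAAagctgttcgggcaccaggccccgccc
Igtp, chr11:58199496-58199555, plus strand: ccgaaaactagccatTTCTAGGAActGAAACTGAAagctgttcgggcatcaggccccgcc

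The next 4 stretches are from class I genes and carry the Y box in capitals, 52 to 55 bases before the start. The last is from Ubd, whose window held 2 Y boxes, of which the stretch shows the one farther from the start, at 223 bases, and held neither the ISRE core nor the GAS letters. These matches describe letters and are not evidence of binding.
B2m, chr2:122147606-122147665, plus strand: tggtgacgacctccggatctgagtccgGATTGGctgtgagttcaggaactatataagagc
H2-Q4, chr17:35379535-35379594, plus strand: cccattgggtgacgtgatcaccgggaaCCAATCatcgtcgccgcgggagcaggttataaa
H2-Q6, chr17:35424768-35424827, plus strand: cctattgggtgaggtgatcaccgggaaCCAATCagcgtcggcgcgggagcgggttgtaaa
H2-T23, chr17:36032721-36032780, minus strand: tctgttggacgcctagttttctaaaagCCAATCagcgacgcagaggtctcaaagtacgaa
Ubd, chr17:37193642-37193701, plus strand: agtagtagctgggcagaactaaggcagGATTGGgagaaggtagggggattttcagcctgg

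In TA, 22 of the 32 tested genes were higher than in WT and 0 were lower, in edgeR's quasi-likelihood test with Benjamini-Hochberg adjustment over all genes tested and a threshold of 0.05. Of all tested genes, 6.72% were higher in TA and 4.41% lower. In TD, 14 were higher than WT and 1 was lower, where 15.1% of all genes were higher and 14.2% lower. Between TD and TA, 1 was higher in TD and 5 were lower, against 7.33% and 9.37% of all genes. The median log2 fold change over the 32 genes was 0.63 for TA against WT, 0.46 for TD against WT and -0.18 for TD against TA, beside -0.01, 0.01 and 0.02 over all genes. Every TA library lay above every WT library for 16 of the 32, and for 7.71% of all genes. Every TD library lay above every WT library for 11, and for 15.8% of all genes. Both comparisons use the same WT libraries. Single libraries moved these counts. Of the 22 calls in TA, 12 remained without WT3 and 14 without WT2. Of the 15 calls in TD, 8 remained without TD4 and 9 without TD3, and of the 6 between TD and TA, 1 (Ubd) remained without any one of TA2, TA4, TD2 or TD4.

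**Figure D1:**
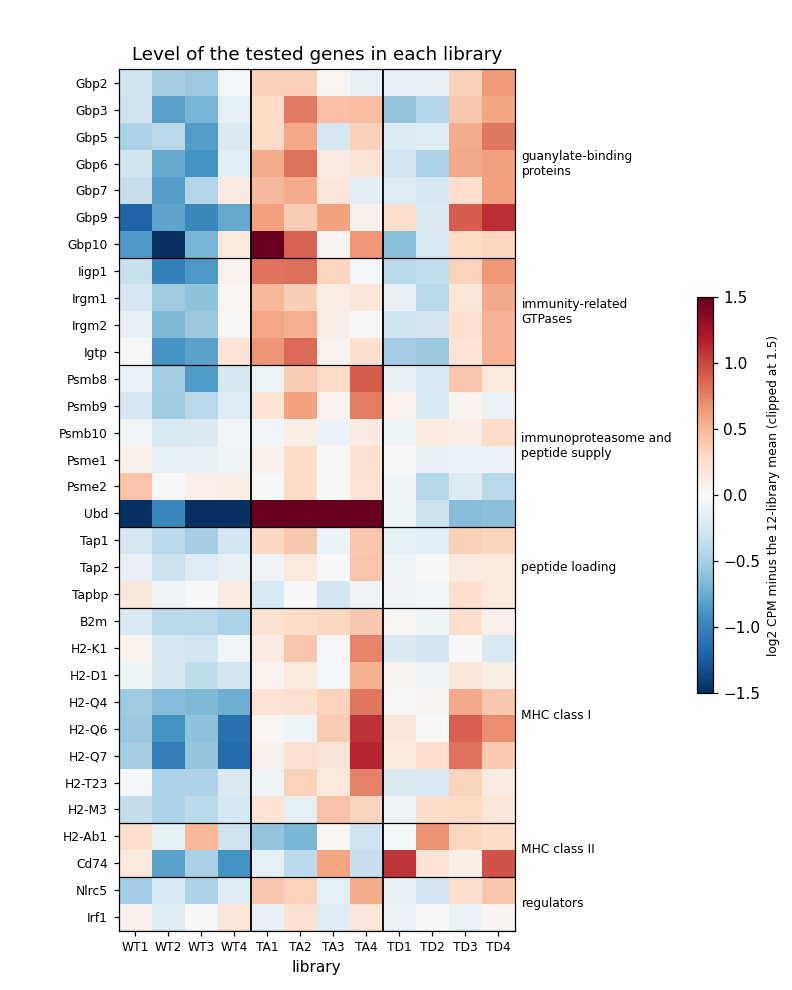
Level of the 32 tested genes (rows, by group) in the 12 libraries (columns), as log2 CPM minus the mean of the 12 libraries, with 0.1 CPM added before the logarithm; colours stop at 1.5, which Ubd and Gbp10 exceed. The WT columns are mostly blue, the TA columns mostly red, and TD3 and TD4 redder than TD1 and TD2 in the GTPase rows.

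**Figure D2:**
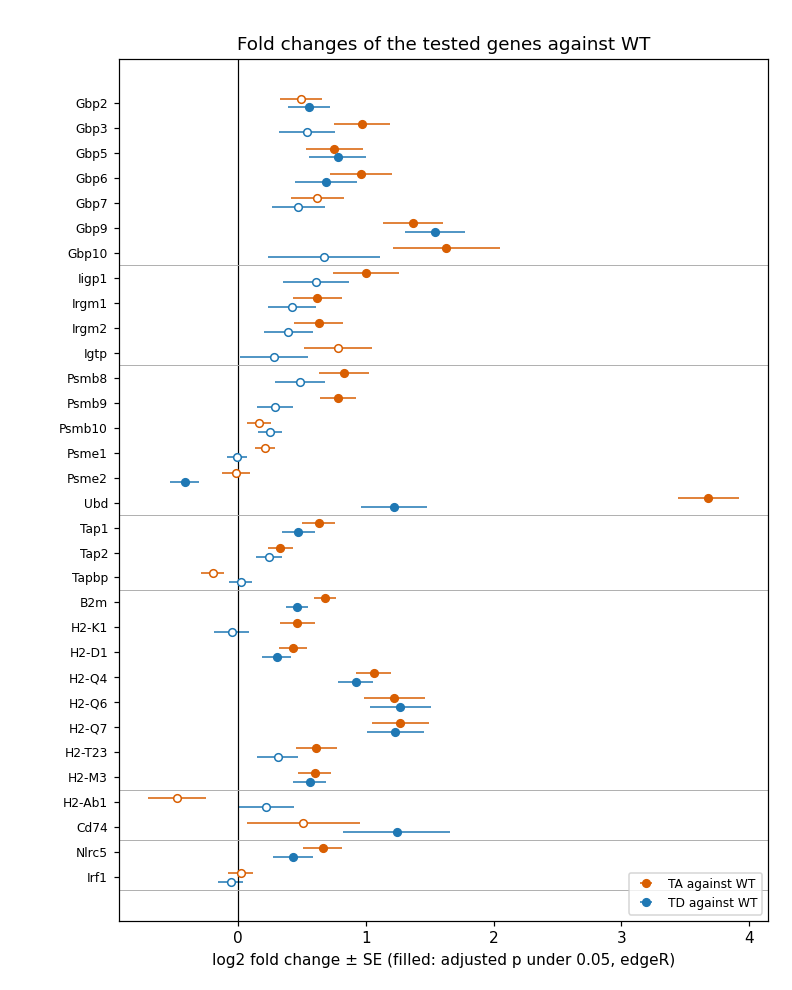
Log2 fold change (x axis) of each tested gene (y axis) in TA (orange) and TD (blue) against WT, with the standard error of edgeR's fit as bars; filled points have an adjusted p under 0.05. Ubd lies at 3.68 in TA and 1.22 in TD, and most class I points are filled in both genotypes.

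Between TA and each other genotype, Ubd had the largest fold change of the 32 tested genes, while between TD and WT those of Gbp9, H2-Q6, H2-Q7 and Cd74 were larger. It encodes FAT10, a ubiquitin-like protein induced by interferon gamma and TNF that sends proteins to the proteasome. The gene lies at chr17:37193892-37196095 (GRCm38). In WT it stood at 0.623, 1.14, 0.644 and 0.548 CPM, in TA at 8.60, 11.3, 8.52 and 9.89, and in TD at 2.21, 1.83, 1.44 and 1.47. The 3 genotypes did not overlap, with TA highest and TD between TA and WT. The log2 fold change was 3.68 ± 0.239 (SE) for TA against WT (12.8-fold, adjusted p = 5.78e-08, edgeR), 1.22 ± 0.259 for TD against WT (adjusted p = 0.0025) and -2.46 ± 0.217 for TD against TA (adjusted p = 2.6e-06). All 3 calls held in every alternative fit. No 50-base stretch of Ubd is shared with another transcript.

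**Figure D3:**
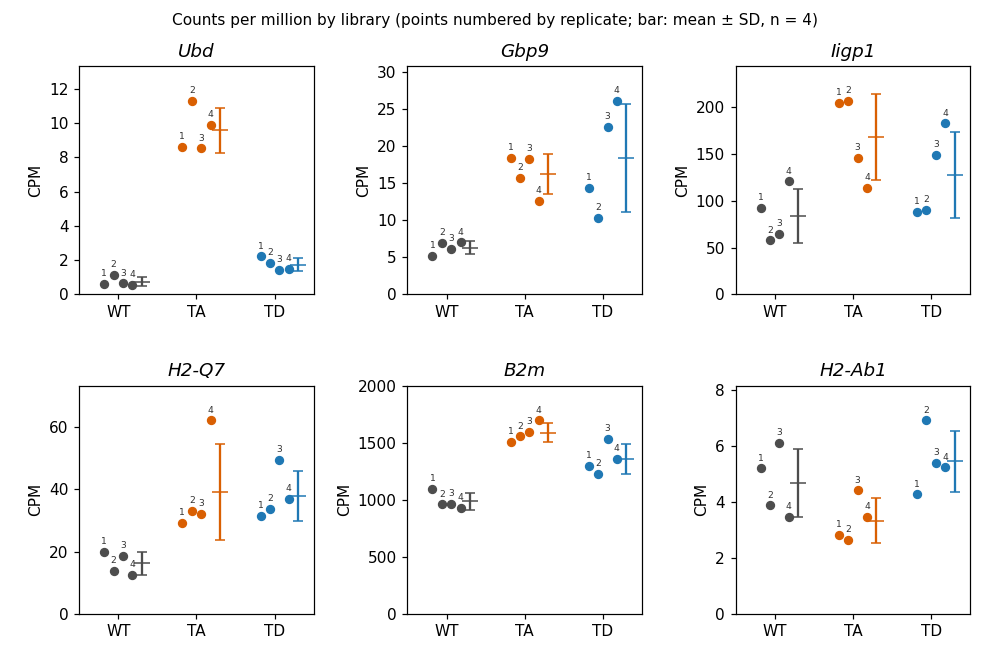
CPM of 6 genes (y axes, from 0) in each library by genotype, with points numbered by replicate and the mean ± SD (n = 4) beside them. Ubd separates the 3 genotypes, Iigp1 in TD splits into replicates 1 and 2 at 88.3 and 90.2 and replicates 3 and 4 at 149 and 183, and H2-Ab1 overlaps in all 3.

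The guanylate-binding proteins rose in TA and, less uniformly between libraries, in TD. These large GTPases assemble on pathogen vacuoles and feed inflammasome activation. Of 7 tested, 5 were higher in TA (median log2 fold change 0.96) and 4 in TD (median 0.67), and 0 were lower in either. Among all genes, 6.72% were higher in TA and 15.1% in TD, and 4.41% and 14.2% were lower. Gbp9 stood at 5.19, 6.90, 6.10 and 7.01 CPM in WT, at 18.4, 15.7, 18.3 and 12.6 in TA, and at 14.4, 10.3, 22.6 and 26.1 in TD. Neither mutant overlapped WT, and the mutants overlapped each other. Its log2 fold change was 1.37 ± 0.234 in TA (adjusted p = 0.00118) and 1.54 ± 0.234 in TD (adjusted p = 0.000261), and both calls held in every alternative. Gbp9 overlaps Gbp4 and Gbp8 on the same strand.

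Gbp3 stood at 73.2, 51.4, 56.0 and 82.5 CPM in WT, at 111, 155, 124 and 125 in TA and at 60.4, 66.6, 120 and 136 in TD. TA lay above WT throughout, by 0.97 ± 0.219 on the log2 scale (adjusted p = 0.00849), whereas TD1 and TD2 lay within the WT range. Gbp10 was higher in TA by 1.63 ± 0.42 (adjusted p = 0.0189) at a low level of 0.641 ± 0.363 CPM in WT and 1.98 ± 0.909 in TA (SD, n = 4), and the call was lost in 4 of 14 alternatives. Gbp5 stood at 9.80 ± 1.73 CPM in WT, 16.5 ± 3.72 in TA and 16.8 ± 5.92 in TD. It was higher in TA by 0.75 ± 0.223 (adjusted p = 0.0395), with overlap, and that call was lost in 6 of 15 alternatives. Gbp6, at 9.34 ± 2.31 CPM in WT, 18.1 ± 4.10 in TA and 15.1 ± 5.68 in TD, was higher in TA by 0.96 ± 0.242 (adjusted p = 0.0171), without overlap, a call lost in 1 of 15 alternatives.

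In TD the other calls were Gbp5, Gbp6 and Gbp2, with log2 fold changes of 0.78 ± 0.223, 0.69 ± 0.243 and 0.55 ± 0.164 (adjusted p = 0.0149, 0.0423 and 0.0199, edgeR). Gbp2 stood at 69.5 ± 12.1 CPM in WT, 97.8 ± 16.1 in TA and 102 ± 26.8 in TD. These 3 lost their calls without TD4. Gbp7 was called in neither mutant, at 32.4 ± 9.15 CPM in WT, 49.8 ± 10.9 in TA and 45.0 ± 13.0 in TD. Gbp8 was too low to test, with 13 counts over the WT libraries, 19 over TA and 47 over TD. Gbp6 and Gbp10 share 90.2% and 82.5% of their 50-base stretches with other transcripts, mainly a readthrough model across both genes. The counts of both genes are therefore uncertain. Per kilobase of exon, Gbp2 was the most abundant member in WT at 27.6 CPM per kb, followed by Gbp3 at 20.1.

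The immunity-related GTPases rose in TA. They load onto or guard vacuole membranes, with Irgm1, Irgm2 and Igtp (Irgm3) as regulators of effectors such as Iigp1 (Irga6). Of 4 tested, 3 were higher in TA (median 0.70) and 0 in TD (median 0.40), against 6.72% and 15.1% of all genes. Iigp1 stood at 92.8, 57.8, 64.4 and 121 CPM in WT, at 205, 207, 146 and 114 in TA, and at 88.3, 90.2, 149 and 183 in TD. TA4 lay below WT4, and TD1 and TD2 lay within the WT range. Its log2 fold change in TA was 1.00 ± 0.259 (adjusted p = 0.0192), and the call was lost in 3 of 15 alternatives.

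Irgm2 and Irgm1 were higher in TA by 0.63 ± 0.191 (adjusted p = 0.0419) and 0.62 ± 0.189 (adjusted p = 0.045), and each lost its call without any one of 5 or more libraries. Igtp was not called, at 29.8 ± 11.3 CPM in WT, 51.1 ± 12.9 in TA and 36.2 ± 13.4 in TD. Igtp and Irgm2 overlap on the same strand. Tgtp2 had 14 counts in TA, 12 of them in TA4, and 0 in WT and TD, with 90.6% of its stretches shared, mainly with Tgtp1.

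The GTPases also varied together within a genotype. TD3 and TD4 both lay above TD1 and TD2 for 11 of the 11 tested GTPases, and for 22.5% of all genes. WT1 and WT4 both lay above WT2 and WT3 for 8 of 11, against 22% of all genes, and TA1 and TA2 above TA3 and TA4 for 8 of 11, against 17.5%. These splits were seen in the values, so they are descriptions, and the labels give no batch that could define them. The mean level over the 11 genes was -0.28 and -0.32 in TD1 and TD2 and 0.39 and 0.63 in TD3 and TD4 (log2, relative to the 12 libraries). The type I interferon-stimulated genes, 29 genes such as Isg15, Oas2 and Zbp1, lay at -0.42 and -0.49 and at 0.46 and 0.65 in the same libraries. The skeletal muscle markers lay at -0.62, 1.53, 3.31 and 2.73 in TD1 to TD4. TD1 was low in both lists, TD3 and TD4 were high in both, and TD2 was high in muscle markers and low in GTPases. The part of muscle cells in the GTPase levels was not tested.

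**Figure D4:**
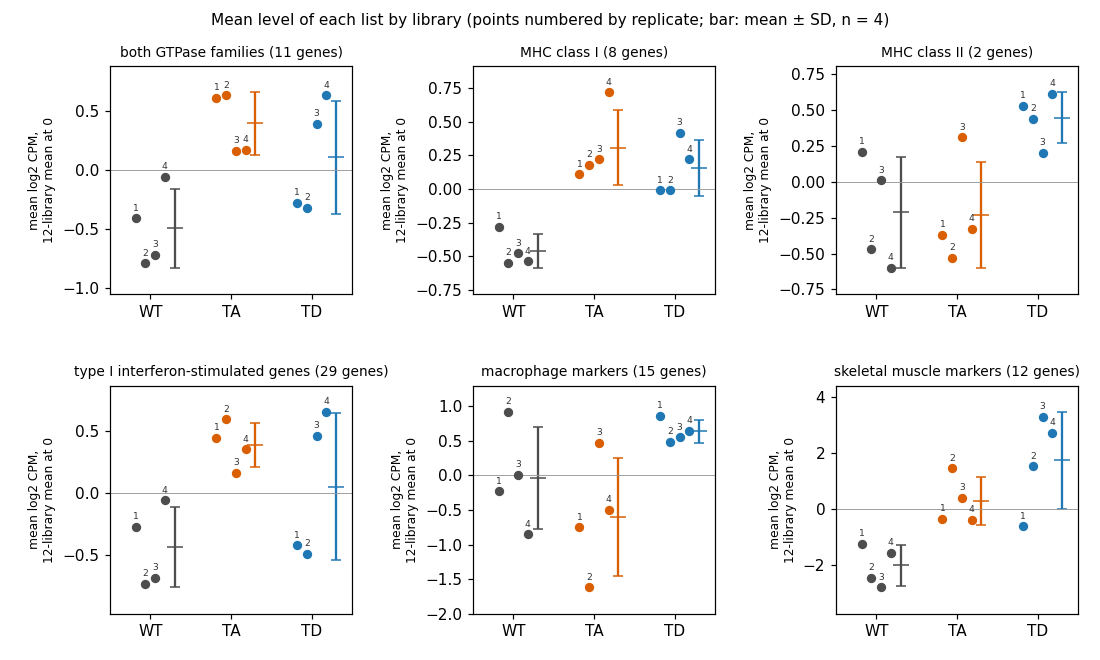
Mean log2 CPM of the tested genes of 6 lists in each library, relative to the mean of the 12 libraries (y axes differ between panels), with points numbered by replicate and the mean ± SD (n = 4) beside them. In TD, replicates 3 and 4 stand above 1 and 2 for the GTPases and the type I interferon-stimulated genes, class I has all WT libraries below all TA and TD libraries, and macrophage markers range from -1.62 in TA2 to 0.92 in WT2.

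Further interferon-induced GTPases were also higher in the mutants. Of 14 further genes, 10 were tested, of which 7 were higher in TA (median 1.04) and 6 in TD (median 0.80), and 1 was lower in TD than in TA. Gbp4 stood at 0.384 to 0.695 CPM in WT, 2.67 to 3.50 in TA and 2.53 to 3.99 in TD, with log2 fold changes of 2.43 (adjusted p = 1.42e-05) and 2.60 (adjusted p = 2.92e-05). Gbp11 was higher in TA by 1.28 and in TD by 0.68, and lower in TD than in TA by -0.60 (adjusted p = 0.0433). Of the 29 type I interferon-stimulated genes, 12 were higher in TA, 11 were higher in TD and 1 (Ifi27) was lower in TD. Of all genes, 6.72% were higher in TA than in WT and 15.1% in TD. The shares lower were 14.2% for TD against WT and 9.37% for TD against TA. Ifi27l2a stood at 101 to 163 CPM in WT, 297 to 321 in TA and 106 to 196 in TD, with TD lower than TA by -1.04 (adjusted p = 0.0003).

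The inducible catalytic subunits Psmb8 and Psmb9, whose products LMP7 and LMP2 confer the cleavage preferences of the immunoproteasome, rose in TA. Psmb8 stood at 32.0, 23.6, 18.7 and 28.1 CPM in WT, at 32.1, 44.1, 41.4 and 63.7 in TA, and at 31.3, 28.8, 45.1 and 37.9 in TD. The lowest TA library, at 32.1, lay just above the highest WT library, at 32.0, TA4 was the highest of all, and TD overlapped both other genotypes. The log2 fold change in TA was 0.83 ± 0.195 (adjusted p = 0.0111). Psmb9 stood at 18.9, 15.5, 16.8 and 19.7 CPM in WT, at 25.9, 34.1, 23.3 and 38.3 in TA, and at 23.3, 19.2, 23.4 and 20.9 in TD. TA did not overlap WT, and TD overlapped TA at its lower edge. It rose in TA by 0.78 ± 0.14 (adjusted p = 0.00168). Against TA, TD was lower by -0.49 ± 0.139 (adjusted p = 0.0249), a call lost in 4 of 15 alternatives. Psmb10, which encodes MECL-1, was called in no comparison, at 22.6 ± 1.69 CPM in WT, 25.2 ± 1.82 in TA and 26.8 ± 2.59 in TD.

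Psme1 and Psme2 encode the PA28 activator, which opens the proteasome and eases peptide release. Psme2 stood at 42.2, 31.2, 33.0 and 33.4 CPM in WT, at 31.4, 38.4, 31.6 and 36.5 in TA and at 30.3, 23.4, 27.2 and 23.6 in TD. TD lay below both other genotypes, by -0.42 ± 0.112 against WT (adjusted p = 0.0104) and -0.40 ± 0.112 against TA (adjusted p = 0.0231), of which the second was lost in 5 of 15 alternatives. Psme2 shares 59.3% of its stretches with Psme2b, so its count is uncertain. Psme1 stood at 81.5 ± 5.18 CPM in WT, 94.6 ± 8.93 in TA and 80.7 ± 2.96 in TD, and was lower in TD than in TA by -0.23 ± 0.0758 (adjusted p = 0.049). That call was lost in 11 of 15 alternative fits.

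Each inducible subunit takes the place of a constitutive one, Psmb8 of Psmb5, Psmb9 of Psmb6 and Psmb10 of Psmb7. The ratio of each pair, in CPM per kilobase of exon, was higher in both mutants than in WT. Psmb8 to Psmb5 was 0.0794, 0.0718, 0.053 and 0.0711 in WT, 0.0891, 0.104, 0.116 and 0.165 in TA, and 0.12, 0.106, 0.17 and 0.159 in TD. No mutant library lay within the WT range. Psmb9 to Psmb6 had a mean of 0.14 ± 0.0116 in WT, 0.23 ± 0.0418 in TA and 0.229 ± 0.0216 in TD (SD, n = 4), again without overlap with WT. Psmb10 to Psmb7 was 0.429 to 0.454 in WT, 0.456 to 0.538 in TA and 0.571 to 0.818 in TD. The lowest TA library lay just above the highest WT library, and TD lay above both genotypes.

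The log2 differences from WT were 0.76 ± 0.228, 0.71 ± 0.143 and 0.11 ± 0.0608 in TA and 1.00 ± 0.205, 0.71 ± 0.0925 and 0.63 ± 0.108 in TD for the 3 pairs in that order. Each of these 6 had an exact two-sided permutation p of 0.0286, the smallest that 4 against 4 libraries allow (0.0367 after adjustment over 9 tests). TD was higher than TA for Psmb10 to Psmb7, by 0.52 ± 0.12 (exact permutation p = 0.0286). For Psmb8 to Psmb5 the difference was 0.24 ± 0.249 (exact permutation p = 0.343), and for Psmb9 to Psmb6 0.00 ± 0.148 (exact permutation p = 0.971).

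The members of the ratio that moved differed between the mutants. Psmb5, Psmb6 and Psmb7 were called in TA for 0 of 3, with log2 fold changes of 0.04 to 0.05. In TD all 3 were lower than in WT, by -0.51, -0.42 and -0.39 (adjusted p = 0.00035, 0.00149 and 0.00123, edgeR). Psmb5 stood at 107, 87.6, 93.8 and 105 CPM in WT and at 69.2, 72.1, 70.6 and 63.4 in TD. Of 11 other constitutive subunits of the 20S core, 5 were lower in TD and 0 higher. Of 20 genes of the 19S and PA200 regulators 8 were lower and 0 higher. Of all genes, 14.2% were lower in TD than in WT and 15.1% higher. In TA, 1 of the 11 (Psma1) was higher and 1 of the 20 was lower, where 6.72% of all genes were higher and 4.41% lower. The absolute ratios depend on the gene model. With the longest transcript of each gene in place of all exons, the WT means were 0.122, 0.0916 and 0.479. The log2 differences cannot change with this choice, since each length is the same in every library.

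**Figure D5:**
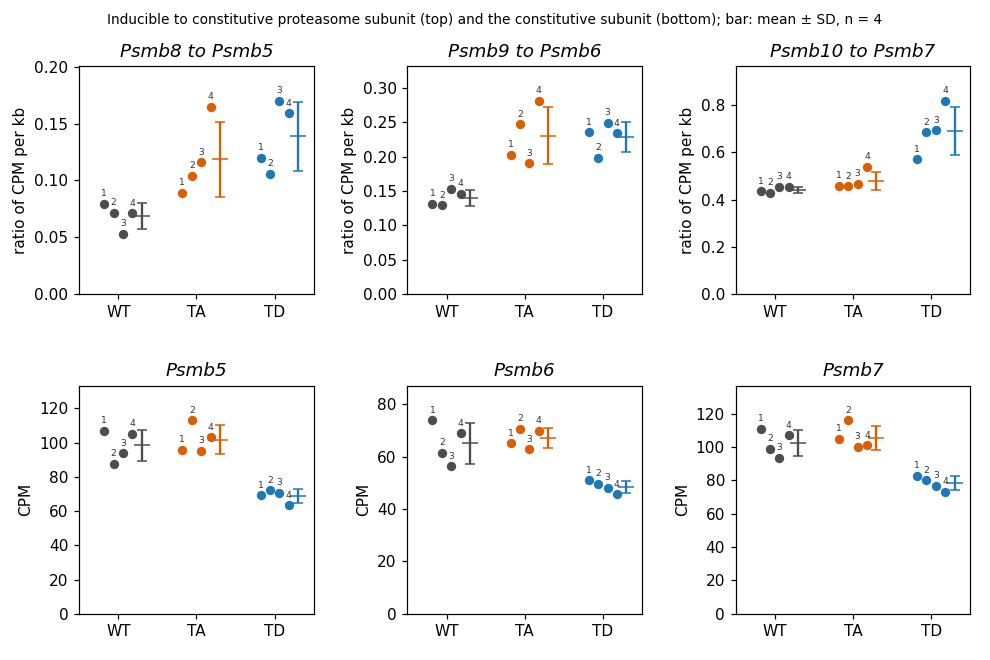
Upper panels give the ratio of inducible to constitutive subunit in CPM per kb for the 3 pairs, lower panels the CPM of the constitutive subunit, all from 0, by library and genotype with the mean ± SD (n = 4). The ratios in both mutants lie above WT, while Psmb5, Psmb6 and Psmb7 are lower in TD only, with every TD library below every WT library.

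Of the peptide-loading genes, Tap1, a subunit of the peptide transporter, stood at 57.8, 52.2, 48.6 and 56.2 CPM in WT, at 85.0, 91.2, 64.5 and 91.6 in TA and at 61.9, 61.7, 88.1 and 86.3 in TD. Both mutants lay above WT, by 0.63 ± 0.13 (adjusted p = 0.00482) and 0.47 ± 0.13 (adjusted p = 0.0124), and the call in TD was lost in 2 of 15 alternatives. Tap2, its partner subunit, was higher in TA by 0.33 ± 0.099 (adjusted p = 0.041) and not called in TD, at 48.5 ± 3.39 CPM in WT, 60.9 ± 9.55 in TA and 57.4 ± 4.37 in TD. Its call was lost in 7 of 15 alternatives. Tapbp (tapasin), which holds class I at the transporter, was called in no comparison, at 328 ± 22.7, 285 ± 26.9 and 332 ± 35.0 CPM. Tap1 and Psmb9 overlap head to head on opposite strands, and the strand setting of the counting is not given in the sources used here. Of 6 genes for folding and trimming, 0 were higher and 1 was lower in TA, Hspa5, by -0.44. In TD Hspa5 was lower than in WT by -0.45 and Pdia3 higher by 0.23, 1 of the 6 in each direction. Among all genes, 6.72% were higher and 4.41% lower in TA, and 15.1% higher and 14.2% lower in TD.

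All 8 class I genes were higher in TA than in WT, and 6 of the 8 in TD, with median log2 fold changes of 0.64 and 0.51. The shares of all genes called higher were 6.72% in TA and 15.1% in TD. The class I list lay at -0.55 to -0.28 in the WT libraries, 0.11 to 0.72 in TA and -0.01 to 0.42 in TD (mean log2 CPM relative to the 12 libraries). B2m stood at 1100, 961, 968 and 929 CPM in WT, at 1510, 1560, 1600 and 1700 in TA and at 1300, 1230, 1540 and 1360 in TD. Neither mutant overlapped WT. The log2 fold change was 0.68 ± 0.0874 in TA (adjusted p = 8.31e-05) and 0.46 ± 0.0872 in TD (adjusted p = 0.0012), and both calls held in every alternative.

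The Q-region genes had the largest fold changes of these 8. H2-Q4, H2-Q6 and H2-Q7 are nonclassical class I genes, of which Q6 and Q7 encode Qa-2. H2-Q4 stood at 59.4, 54.8, 53.9 and 51.6 CPM in WT, at 100, 101, 109 and 149 in TA and at 85.7, 88.3, 128 and 114 in TD. H2-Q7 stood at 19.9, 13.7, 18.6 and 12.5 CPM in WT, at 29.3, 33.0, 32.1 and 62.1 in TA and at 31.4, 33.8, 49.5 and 36.9 in TD. For both genes every mutant library lay above every WT library, and TA4 was the highest of all.

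The log2 fold changes of H2-Q4, H2-Q6 and H2-Q7 were 1.06 ± 0.137, 1.22 ± 0.239 and 1.27 ± 0.222 in TA (adjusted p = 8.71e-05, 0.00324 and 0.00136, edgeR). In TD they were 0.92 ± 0.137, 1.27 ± 0.239 and 1.23 ± 0.222 (adjusted p = 0.000228, 0.00106 and 0.000813, edgeR). The 6 calls held in every alternative, those without TA4 included. These genes share 24.3%, 32.0% and 34.9% of their 50-base stretches with other transcripts, so the split of reads among them is uncertain. The endothelial markers were also higher, 4 of 8 in TA and 7 of 8 in TD, against 6.72% and 15.1% of all genes. So were the fibroblast and preadipocyte markers, 6 of 11 tested in TA and 7 in TD. The part of these cells in the class I levels was not tested.

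The classical genes H2-K1 and H2-D1, which encode the main peptide-presenting heavy chains, were the most abundant heavy chains per length, at 441 and 360 CPM per kb in WT. B2m stood at 1150 CPM per kb. H2-K1 stood at 1470, 1190, 1160 and 1370 CPM in WT, at 1540, 1880, 1390 and 2350 in TA and at 1220, 1160, 1420 and 1210 in TD. It was higher in TA than in WT by 0.46 ± 0.137 (adjusted p = 0.0377), with overlap, and lower in TD than in TA by -0.51 ± 0.137 (adjusted p = 0.018). The first call was lost in 7 of 15 alternatives, with a highest adjusted p of 0.123 without TA4 (edgeR), and the second in 4 of 15. H2-D1 rose by 0.43 ± 0.111 in TA (adjusted p = 0.018) and by 0.30 ± 0.111 in TD (adjusted p = 0.0492), and the calls were lost in 2 and 9 of 15 alternatives.

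H2-M3, which presents formylated peptides, rose by 0.60 ± 0.129 in TA (adjusted p = 0.00583) and 0.56 ± 0.128 in TD (adjusted p = 0.00407). H2-T23, which encodes Qa-1, rose in TA by 0.61 ± 0.161 (adjusted p = 0.0212), a call lost in 3 of 15 alternatives, and was not called in TD. It stood at 103 ± 15.5 CPM in WT, 158 ± 39.0 in TA and 128 ± 25.0 in TD. Between TD and TA its difference of -0.30 did not pass the test. TA4 was the highest TA library for 7 of the 8 class I genes. Of 16 other class I and class I-like genes, 10 were tested and 3 were higher in TA, H2-M9, H2-T10 and H2-T22, by 1.65, 1.04 and 0.51. The share of all genes higher in TA was 6.72%. In TD, 3 of the 10 were higher than in WT and 1 was lower, against 15.1% and 14.2% of all genes. H2-M9 and H2-T10 were higher by 1.46 and 1.39 and Mr1 by 0.21, and Cd1d1 was lower by -0.33 (adjusted p = 0.0043). Of the class I-like genes, Hfe and Fcgrt were called in neither mutant, and Mr1 and Cd1d1 were not called in TA.

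Class II genes were low in all genotypes, with H2-Ab1 the highest of the 4 at 43 to 128 counts per library, and 0 of 2 tested were called in TA. H2-Ab1, the beta chain of I-A, stood at 5.19, 3.87, 6.10 and 3.45 CPM in WT, at 2.81, 2.64, 4.40 and 3.45 in TA and at 4.26, 6.90, 5.38 and 5.22 in TD. The genotypes overlapped, and the call was that TD was higher than TA, by 0.71 ± 0.224 (adjusted p = 0.0401). Cd74, the invariant chain, stood at 0.674, 0.298, 0.396 and 0.274 CPM in WT, at 0.526, 0.430, 0.946 and 0.445 in TA and at 1.36, 0.701, 0.639 and 1.23 in TD. It was higher in TD than in WT by 1.24 ± 0.42 (adjusted p = 0.0361), with overlap between the groups. The call of Cd74 was lost in 7 of 14 alternatives and that of H2-Ab1 in 6 of 15. H2-Aa had 0 counts over the WT libraries, 5 over TA and 11 over TD, and H2-Eb1 had 16, 22 and 23, so both were too low to test. Ciita, the master regulator of class II, had 20, 26 and 36 counts and overlaps Dexi on the opposite strand.

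Macrophage markers are given beside class II. Of 16, 15 were tested, with 0 called in TA, 2 higher in TD than in WT and 4 higher in TD than in TA. The shares of all genes higher in the last 2 comparisons were 15.1% and 7.33%. The mean macrophage score was -0.04 in WT, -0.6 in TA and 0.64 in TD, and that of class II -0.21, -0.23 and 0.45 (log2, relative to the 12 libraries). In WT1 to WT4 macrophage markers lay at -0.23, 0.92, 0.01 and -0.85 and class II at 0.21, -0.47, 0.01 and -0.6. In TA1 to TA4 macrophage markers lay at -0.75, -1.62, 0.47 and -0.5 and class II at -0.37, -0.53, 0.31 and -0.33. In TD1 to TD4 macrophage markers lay at 0.86, 0.49, 0.55 and 0.65 and class II at 0.53, 0.44, 0.2 and 0.61. Lyz2 stood at 309, 512, 371 and 198 CPM in WT, at 176, 94.6, 398 and 211 in TA and at 555, 504, 410 and 386 in TD. Ctss, the protease that trims the invariant chain, was higher in TD than in TA by 1.16 (adjusted p = 0.029). Cx3cr1 was at or near 0, and of 10 markers of dendritic and B cells only Zbtb46 was high enough to test. The part of macrophages in the class II levels was not tested.

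Of the regulators, Nlrc5, the transactivator of class I genes, stood at 27.2, 33.5, 28.2 and 34.5 CPM in WT, at 51.8, 49.9, 35.5 and 57.5 in TA and at 36.1, 32.0, 46.1 and 52.1 in TD. TA lay above WT and TD overlapped it. The log2 fold changes were 0.66 ± 0.155 (adjusted p = 0.011) and 0.43 ± 0.155 (adjusted p = 0.0466), and the call in TD was lost in 7 of 15 alternatives. Irf1, a factor that interferon gamma induces, was called in no comparison, at 43.9 ± 4.57, 44.5 ± 6.29 and 42.2 ± 1.94 CPM. Of 7 genes of the enhanceosome on MHC promoters (the RFX, CREB and NF-Y factors), 0 were called in TA. In TD 1 of the 7 (Rfx5) was higher and 1 (Rfxank) lower, against 15.1% and 14.2% of all genes.

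Of the genes upstream, few were called in TA and more in TD, where the shares of all genes called higher were 6.72% and 15.1%. The ligand Ifng had 0 counts in all 12 libraries, as had Ifnb1, and a count of 0 allows a level of up to 0.148 to 0.181 CPM in one library. Of 12 ligands and receptors 4 were tested, all receptors. Ifngr1 was lower in TA by -0.24 (adjusted p = 0.0484), and Ifngr2 and Ifnar1 were higher in TD by 0.40 and 0.21. Of 15 genes of signal transduction and feedback, 1 was higher in TA and 5 in TD. Stat2 was called in both, at 82.2 to 125 CPM in WT, 144 to 176 in TA and 112 to 195 in TD, by 0.67 (adjusted p = 0.0152) and 0.59 (adjusted p = 0.0141). Socs3, a feedback inhibitor of cytokine receptors, was higher in TD than in WT by 0.87 and than in TA by 0.89.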

How the data were processed

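Per the labels, total RNA of 12 libraries (WT, TA and TD, 4 each) was sequenced. The authors deposited whole-number counts of reads per gene, and the submitters' processing notes name bcl2fastq 2.17.1.14, cutadapt 1.9.1, HISAT2 2.0.1, HTSeq 0.6.1 and build GRCm38. Strand setting and treatment of reads with several matches are not given in the sources used here. Genes and lists were chosen with earlier results of these data known. Every gene was described, with the log2 fold change, its standard error and adjusted p for called genes and levels or counts for the others. Counts were tested with edgeR 4.0.16 (R 4.3.3) on all 12 libraries, with TMM scaling, filterByExpr (minimum count 10, minimum total 15), quasi-likelihood tests and Benjamini-Hochberg adjustment over 15117 genes, and on simulated data first. The common coefficient of variation between libraries of a genotype, as edgeR estimates it beyond counting noise, was 12.9%. Replicate pairs differed beyond counting noise in each of 18 pairs (chi-square per degree of freedom 4.67 to 35.3). Ratios were compared by exact permutation. Gene models were GENCODE M21 and promoters RefSeq. Alternatives were other scaling and filters, DESeq2 1.42.0, a replicate block, fits of 2 genotypes and leaving out each library. The limit of detection given for Ifng and Ifnb1 covers counting error only. The standard errors of edgeR's fit include the spread between libraries.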

Additional observations from a re-analysis of the deposited data

Results flagged for a closer look

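In groups of 4 libraries, 3 values stood apart by Dixon's criterion, of 105 groups examined, where chance alone gives 5.25. Ubd in WT2 was 1.14 CPM, with the nearest WT library at 0.644 and the lowest at 0.548. H2-Q7 in TA4 was 62.1 CPM, with the nearest TA library at 33.0 and the lowest at 29.3. The ratio of Psmb10 to Psmb7 in TA4 was 0.538, with the nearest at 0.468 and the lowest at 0.456. Neither Ubd nor H2-Q7 lost a call when that library was left out. With each library left out, the log2 difference of Psmb10 to Psmb7 in TA against WT lay between 0.06 and 0.14.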

How the results depend on the processing

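The number of genes called in TA against WT was 22, between 12 and 24 with each library left out (14 without WT2 and 12 without WT3), and between 21 and 26 otherwise. In TD against WT it was 15, between 8 and 16 with each library left out (9 without TD3 and 8 without TD4), and 24 without a filter on low counts. In TD against TA it was 6, between 1 and 7 with each library left out, and 11 without a filter. Without any one of TA2, TA4, TD2 or TD4 it was 1. The cause of these changes was not tested. Calls that held in every alternative numbered 12, 8 and 1, and 0 changed sign. With the replicate number as a block, 21, 13 and 5 genes were called. Deviations of same-numbered libraries had correlations between -0.237 and 0.196, which show no clear pairing by number. Low correlations cannot exclude a pairing, and the labels do not give one. Scaling by library totals alone gave 64.6% of all calls higher in TD against WT in place of 51.5%, and 64.7% in TD against TA in place of 43.9%. The genes described here were then called higher for 18 and lower for 1 against WT, and higher for 2 and lower for 3 against TA. The median class II log2 fold change was -0.48 in TA and 0.24 in TD when only genes with at least 10 counts in every library were tested, since H2-Ab1 alone then remained. DESeq2 called 22, 15 and 7. Low counts limit the class II genes, Gbp8, Tgtp2 and Ciita.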
